A study of Mus musculus with 4 samples.

Results

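The protocadherin genes were taken as every non-control array probe whose gene name starts with Pcdh. The rule gave 74 probes for 45 genes, of 27630 genes on the array, and each gene was represented by its brightest probe on average. They fell into 5 genes named in the alpha cluster, 22 in the beta cluster, 6 in the gamma cluster and 12 non-clustered genes. All 5 alpha, 22 beta and 6 gamma genes lie in a row on chromosome 18, and the non-clustered genes lie on chromosomes 3, 5, 10, 14, 18 and X.

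RNA was measured in limb and in brain of mouse embryos at E13.5, with 1 array for each of 4 groups. WT limb and WT brain were labelled wild type, and CKO limb and CKO brain carried a conditional ablation of Rest, the gene for a zinc-finger repressor of neuronal genes. Floxed Rest was cut by Cre alleles that doxycycline switches on, and doxycycline from E8.5 to E13.5 is recorded for all 4 groups, the wild type included. The background of all 4 was 129 and C57BL/6. The promoter that drives Cre, the alleles that the wild-type embryos carried and whether an RNA came from 1 embryo or from several are not given in the sources used here.

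Protocadherins are cell adhesion proteins of the cadherin superfamily, many of which bind the same protein on a neighbouring cell. In the alpha and gamma clusters, each variable first exon has its own promoter and is spliced to constant exons that the whole cluster shares, whereas a beta gene is a single exon. Neurons use different sets of variable exons, which lets the branches of a neuron recognise themselves, and the DNA-binding protein CTCF with cohesin links a variable promoter to distant enhancers. An enhancer of the alpha cluster is known to hold a binding element for REST. The non-clustered genes are single genes, many of them active in particular brain regions and in embryonic mesoderm.

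Levels are log2 signals scaled so that each array's 75th percentile is 0, and a difference is CKO minus WT within a tissue. Levels of different probes cannot be set against each other. A spot that the scanner software did not call well above background has no measured level here. Where 1 array of a pair was in that state, the difference is a bound, written "at least": the bright array's value against the higher of the dim array's own value and its lowest signal well above background. With 1 array per group no difference within a tissue could be tested, and a gene was called on size alone, at 2-fold or more. The error at hand was technical, from the 245 probes that every array carries 10 times. Over such spots, the median SD of the difference at 1 array position was 0.031 in limb and 0.026 in brain for probes with a mean level of 0 or above. It was 0.066 in both tissues for levels from -4 to 0, and 0.34 in limb and 0.41 in brain below -4. This error leaves out labelling and differences between embryos.

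The arrays shared 1 slide and 1 scan day. Between 62.7% and 70.7% of their 43379 non-control spots were well above background, with the lower share on the WT array in both tissues, so fewer dim spots passed on the WT arrays. Each of the 3 Rest probes read lower in CKO. At the probe from 77709928 to 77709987 on chromosome 5 (mm9) it was at 2.41 and -1.56 in WT and CKO limb and at -0.16 and -3.73 in WT and CKO brain, which is 15.7-fold and 11.9-fold lower. At its other probes it was 17.2-fold and 4.03-fold lower in limb, and at least 6.60-fold and 1.88-fold lower in brain. The sources used here do not give which part of the gene is floxed, and a probe outside that part checks nothing. The tissue labels were checked on marker lists. The summed signal of 12 pan-neuronal genes was 18.3 and 23.8 times the array's 75th percentile in WT and CKO limb and 593 and 581 times in WT and CKO brain. That of 9 skeletal muscle genes was 166 and 231 times in the limbs and 2.55 and 2.94 times in the brains.

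Of the 45 protocadherin genes, 30 were well above background on all 4 arrays, 9 on 3, 2 on 2, 2 on 1 and 2 on none. Pcdhb1 and Pcdhga12 were the genes not well above background on any array. No protocadherin spot was saturated or called an outlier by the scanner software. Of the 74 probes, 6 lie in exons that several genes of a cluster share, 3 named Pcdhac2 and 3 named Pcdhga9. Each lists 3 or 4 RefSeq genes. Those 6 probes read the constant exons, so they measure the summed output of the alpha or the gamma cluster and not a single gene. The probe named Pcdhb18 lists 3 RefSeq beta genes and is uncertain for the same reason.

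The comparison of CKO limb with WT limb asked which protocadherins differ in a mainly non-neuronal tissue with the conditional ablation of Rest. The alpha cluster was higher in CKO limb, at its shared exons and at Pcdha9 by 3.49-fold and 3.88-fold. Pcdh8, a non-clustered gene known from the segmenting mesoderm and from neurons, was 2.09-fold higher, and Pcdhb10 was at least 2.07-fold higher. No protocadherin was 2-fold lower. These 4 genes were 4 of 40 compared, beside 461 of 18450 genes (2.5%) at least 2-fold higher over the whole array, and the 0 lower stand beside 399 genes (2.16%). The median difference of the 40 was -0.0023, against -0.022 over all genes compared, with 14 above 0, 20 below and 6 bounds at 0. With normexp background correction Pcdha9 was 1.16 higher on the log2 scale, still past 2-fold, and Pcdh8 0.98 and Pcdhb10 0.32, both then under it.

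The shared alpha exons were read by 3 probes (chromosome 18, plus strand, mm9). At the probe from 37344758 to 37344817, which represents Pcdhac2 here, the level stood at -0.50 and 1.30 in WT and CKO limb and at 2.76 and 2.97 in WT and CKO brain. At the probe from 37347017 to 37347076 it was -1.27, 0.55, 2.35 and 2.55 on the same arrays in that order. The intron-spanning probe from 37315820 to 37318930 gave -2.12, -0.41, 1.04 and 1.23. All 3 probes put WT limb lowest, CKO limb next and the brains highest. The CKO minus WT difference was 1.80, 1.82 and 1.71 in limb and 0.21, 0.20 and 0.19 in brain. Pcdhac2 itself is a C-type alpha gene, known for the spacing of serotonergic axons, and none of the 3 probes that bear its name reads its own first exon.

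Among the variable alpha exons, Pcdha9 (37159706 to 37159765) was at -3.79 and -1.83 in WT and CKO limb and at -0.50 and -0.25 in WT and CKO brain. Its order over the arrays was that of the shared exons. Pcdha4 (37114742 to 37114801) was not well above background in WT limb and was at -4.09 in CKO limb and at -2.81 and -2.63 in WT and CKO brain, which makes it at least 1.82-fold higher in CKO limb. Pcdha6 (37129729 to 37129788) was likewise not well above background in WT limb and was at -4.05, -1.59 and -1.65 on the other arrays in that order, at least 1.86-fold higher in CKO limb. Both genes were therefore seen in limb on the CKO array alone, at levels where the technical SD is 0.066 to 0.34, and both bounds lie under 2-fold. The probe named Pcdha4-g (37135920 to 37135979) was flat, at -0.95, -0.95, -0.80 and -0.88. That name is no current gene symbol, and the other 44 names are.

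The alpha signal of CKO limb stayed below that of brain. CKO limb was 2.76-fold below WT brain at the representative shared-exon probe, 2.51-fold below at Pcdha9, 2.42-fold at Pcdha4 and 5.49-fold at Pcdha6. WT brain was 9.64-fold above WT limb at the shared exons, and CKO brain was 3.19-fold above CKO limb. For Pcdha9 these values were 9.74-fold and 2.98-fold. With the 2 bounds included, the median difference of the 5 alpha genes in limb was 0.90, from 0.0035 to 1.96. This value is itself the bound of Pcdha6, and the 5 include Pcdha4-g and the shared exons. With normexp background correction the limb median was 0.50. In brain the median was 0.18, from -0.079 to 0.25. Whether the differences in limb and in brain are unequal could not be tested with 1 array per group. In bulk tissue, more cells that express a gene and more RNA per cell cannot be told apart.

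**Figure D1:**
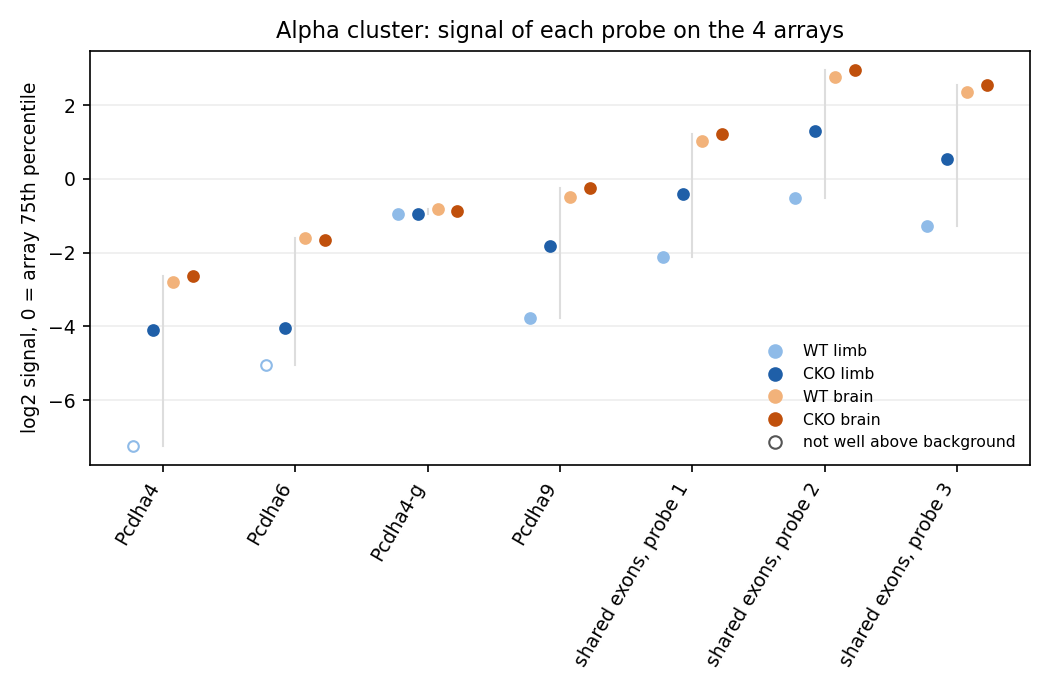
Level of each alpha-cluster probe (log2 signal, 0 = the array's 75th percentile) on the 4 arrays, 1 point per array, with probes in order of position and open points not well above background. At Pcdha9 and all 3 shared-exon probes CKO limb lies between WT limb and the brains, by 1.71 to 1.96 above WT limb, while Pcdha4-g stays between -0.95 and -0.80.

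Some markers of other cell types also differed in limb. Of 12 pan-neuronal genes, 5 were at least 2-fold higher in CKO limb and 0 lower, with a median difference of 0.87. These were Elavl3, chosen after its values were seen, at least 25.8-fold, Tubb3 6.19-fold, Ina 3.46-fold, Rbfox3 3.25-fold and Rtn1 2.44-fold. The others lay under 2-fold, and Uchl1, Mapt and Gap43, chosen after their values were seen, differed by -0.0016, 0.056 and 0.11. Elavl3 was the one member not well above background in WT limb, and the summed signal of the list was 18.3 in WT limb and 23.8 in CKO limb. Of 29 neuronal genes known as REST targets, 24 were at least 2-fold higher in CKO limb and 0 lower, with a median of 2.84. Tubb3 is on this list and on the pan-neuronal one, and the lists were chosen with earlier results of these data known. Over all genes compared 2.5% were at least 2-fold higher in CKO limb. Of 6 Schwann and neural crest genes 0 were at least 2-fold higher, with a median of 0.14. Of 6 red cell genes compared, 4 were lower by 2-fold or more, the median was -1.34 and the summed signals were 619.6 and 309 in WT and CKO limb. All 8 epidermis genes were below 0, with a median of -0.58, 1 of them at least 2-fold lower, and sums of 131 and 85.6. Of 9 skeletal muscle genes, 8 were above 0, with a median of 0.53 and 0 at 2-fold. The part of these cell types in the alpha difference was not tested.

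The beta cluster was near even between the limb arrays. Of 22 beta genes, 19 could be compared and 1 was at least 2-fold higher, beside 2.5% of all genes compared. Of the 19, 4 were above 0 and 12 below, with a median of -0.098. Pcdhb10 (37573538 to 37573597) was not well above background in WT limb and was at -3.65 in CKO limb and at -3.34 and -3.15 in WT and CKO brain. Pcdhb4 (37470024 to 37470083) was at -1.61 and -0.85 in WT and CKO limb and at -1.06 and -0.96 in WT and CKO brain, 1.70-fold higher in CKO limb. With that, Pcdhb4 in CKO limb was 0.21 above WT brain, and WT limb alone stood low. The neighbours of Pcdhb4 measured on both limb arrays were near 0, with -0.15 for Pcdhb3, -0.064 for Pcdhb5 and 0.078 for Pcdhb6. The lowest beta difference in limb was that of Pcdhb14, which was at -2.13 and -2.60 in WT and CKO limb and at -2.41 and -2.65 in WT and CKO brain, lower in CKO in both tissues.

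The gamma cluster was close to even between the limb arrays. Its shared exons, at the probe from 38001376 to 38001435 named Pcdhga9, were at 4.70 and 4.86 in WT and CKO limb and at 5.29 and 5.30 in WT and CKO brain. The limb difference there was 0.15, against 1.80 at the shared alpha exons, and the other shared-exon gamma probes gave 0.086 and -0.11. Of the variable gamma exons, Pcdhga4 was at -3.55, -3.47, -3.07 and -3.04 on the WT limb, CKO limb and both brain arrays. Pcdhga7 was not well above background in WT limb and was at -4.35 in CKO limb, which makes it at least 1.51-fold higher. Pcdhga1 was well above background on the CKO arrays alone and Pcdhgb4 on CKO brain alone, so neither had a measured difference.

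**Figure D2:**
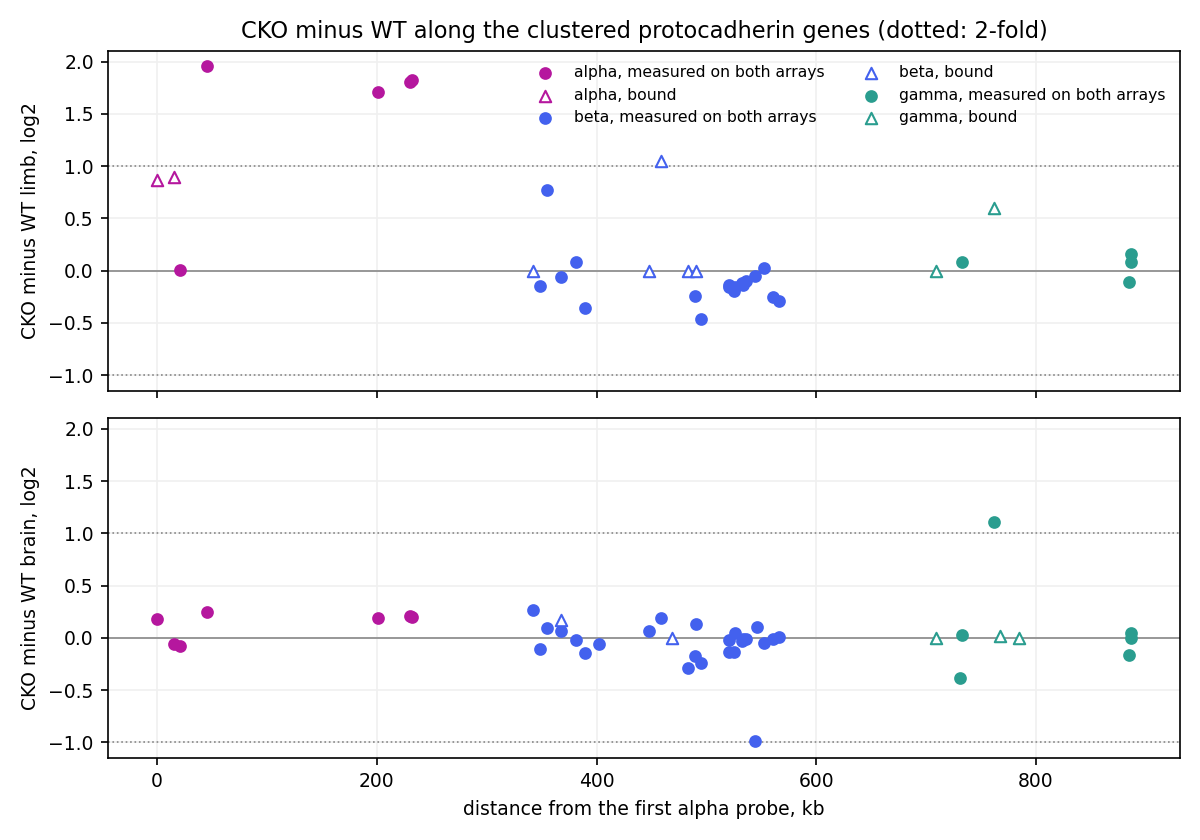
CKO minus WT difference (log2) in limb, upper panel, and in brain, lower panel, for each probe of the alpha, beta and gamma clusters against its distance in kb from the first alpha probe; triangles are bounds and dotted lines mark 2-fold. In limb the alpha probes measured on both arrays, apart from Pcdha4-g, lie at 1.71 to 1.96. Beta and gamma probes measured on both arrays lie between -0.47 and 0.77. The limb bounds are 0.86 for Pcdha4 and 0.90 for Pcdha6, and those of beta and gamma probes reach 1.05, at Pcdhb10.

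Other genes of the same stretch of chromosome 18 were compared as neighbours. Of 37 genes flanking the clusters, 35 could be compared in limb. Of these, 2 were higher in CKO limb by 2-fold or more and 0 lower, with a median of 0.035. Over all genes compared 2.5% were higher and 2.16% lower. Psd2, an exchange factor of the nervous system, was at -3.40 in WT limb and -1.28 in CKO limb, 4.37-fold higher. Rell2, chosen after its values were seen, was not well above background in WT limb and was at -1.58 in CKO limb, at least 10.3-fold higher. Pcdh1 and Pcdh12 are the non-clustered protocadherins of chromosome 18, and their limb differences were -0.058 and -0.0045 at their representative probes. The other probe of Pcdh12, with a mean level of -4.94, gave -0.78 in limb, and the mean of its probes gave -0.39. The probe that represents Pcdh12 lies at 38426868 to 38426927 and that of Pcdh1 at 38356348 to 38356399.

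The regulators of the clusters were near even. Of 18 genes for CTCF, cohesin, DNA methylation and related factors, 18 were compared in both tissues, 0 were 2-fold higher, and Rest was the single gene 2-fold lower in limb, by 4.03-fold at its representative probe. The median was -0.042 in limb and -0.074 in brain. Of 20 compared genes for proteins that bind or cut protocadherins, 0 differed by 2-fold in either tissue. Among them the largest limb differences were 0.63 for Dab1, an adaptor that binds Pcdh18, and 0.47 for Cyfip2, a subunit of the WAVE actin complex. Of 14 classical cadherins compared in limb, Cdh22 alone was 2-fold higher, by 7.10-fold, with 0 lower. Of 9 genes in a list of Fat, Dachsous and Flamingo cadherins and Fjx1, which is no cadherin, Celsr3 alone was 2-fold higher, by 9.63-fold, with 0 lower. Celsr3 is also among the neuronal genes known as REST targets that were compared above. Over all genes compared 2.5% were at least 2-fold higher in CKO limb. The limb median was -0.025 for the classical cadherins and -0.29 for the list that holds Celsr3.

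For 4 of the non-clustered genes with a matched promoter, chosen for their tissue difference, the 250 bases before the RefSeq start (GRCm38.p6) are printed 5′ to 3′ on the gene's strand, since all 4 hold a CCAAT motif. Capitals mark CCAAT or its reverse complement ATTGG, and TATAAA. The regions are chr14:79771313-79771562 (minus strand) for Pcdh8, chr14:84443313-84443562 (plus) for Pcdh17, chrX:133688994-133689243 (minus) for Pcdh19 and chr3:49757317-49757566 (minus) for Pcdh18.
Pcdh8: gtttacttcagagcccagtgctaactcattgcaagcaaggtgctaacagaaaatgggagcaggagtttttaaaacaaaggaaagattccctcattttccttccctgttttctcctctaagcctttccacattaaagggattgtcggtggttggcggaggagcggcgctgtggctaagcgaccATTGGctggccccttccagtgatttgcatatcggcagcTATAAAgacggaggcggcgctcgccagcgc
Pcdh17: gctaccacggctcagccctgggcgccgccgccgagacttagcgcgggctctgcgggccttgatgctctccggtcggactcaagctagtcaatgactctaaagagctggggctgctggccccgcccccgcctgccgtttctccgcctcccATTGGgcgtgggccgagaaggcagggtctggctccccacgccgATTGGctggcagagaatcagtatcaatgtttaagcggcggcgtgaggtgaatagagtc
Pcdh19: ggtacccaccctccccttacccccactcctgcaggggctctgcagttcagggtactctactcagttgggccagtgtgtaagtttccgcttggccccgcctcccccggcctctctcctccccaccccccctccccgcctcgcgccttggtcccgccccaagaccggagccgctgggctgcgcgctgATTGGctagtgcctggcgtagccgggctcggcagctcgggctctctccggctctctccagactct
Pcdh18: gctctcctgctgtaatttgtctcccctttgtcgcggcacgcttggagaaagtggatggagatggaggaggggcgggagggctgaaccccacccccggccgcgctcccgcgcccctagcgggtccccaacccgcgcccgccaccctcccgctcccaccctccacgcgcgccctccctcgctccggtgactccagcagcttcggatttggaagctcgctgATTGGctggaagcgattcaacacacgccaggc

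RefSeq promoters were matched for 9 of the 12 non-clustered genes. CCAAT on either strand was in the window of 8 of the 9, Pcdh7 being the other one, and in 33.8% of 32851 promoters of the same length. Its first base lay 68 bases before the start in Pcdh8, 101 and 58 in Pcdh17, 65 in Pcdh19 and 32 in Pcdh18. TATAAA on either strand was in Pcdh8 and Pcdh15 and in 12.4% of all promoters. The core of the REST-binding element, RE1, searched on both strands with 2 free bases in its middle, was in 0 of the 9 and in 0.0457% of all promoters. Its parts CAGCACC and GGACAG, whose letters overlap it, were also in 0 of the 9, and in 5.73% and 18.7% of all. GGGCGG, the GC box, was in Pcdh10, Pcdh17, Pcdh18 and Pcdh19 and in 32.7% of all. The window of Pcdh18 held 23 CpG pairs, that of Pcdh17 21, of Pcdh19 16 and of Pcdh8 11, against a median of 6 over all promoters. A match or its lack in these windows describes the letters alone.

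Comparing WT brain with WT limb gives the tissue pattern that the genotype differences are read beside. Of 40 protocadherins compared, 11 were at least 2-fold higher in WT brain, beside 15.8% of 18435 genes, and 3 were lower, beside 18.9%. Of the 11, 7 were well above background on both arrays, and the others are bounds. The median was 0.61, against -0.0015 over all genes. CKO brain against CKO limb gave 14 higher of 43, beside 15.1% of 19706 genes, and 2 lower, beside 16.9%, with a median of 0.62 against -0.010. The WT comparison shares its arrays with the genotype comparisons and is no independent check of them.

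Pcdh8 (chromosome 14, 80166728 to 80166787, mm9) was at -0.81 and 0.26 in WT and CKO limb and at 2.39 and 2.42 in WT and CKO brain. The brain arrays gave near-equal levels, and the limb arrays stood apart by 1.07. It was 9.15-fold higher in brain than in limb in WT and 4.47-fold in CKO. Pcdh17 (chromosome 14, 84933861 to 84933920), a presynaptic protein of the delta group, was at 1.20, 1.27, 2.65 and 2.52 on the 4 arrays in the same order. WT brain was 1.45 above WT limb at this probe, -0.39 at the dimmest of its 3 probes and 0.84 with their mean. Pcdh19 (chromosome X, 130122356 to 130122415), the gene of an X-linked epilepsy, was at 1.24, 0.86, 2.66 and 2.42. Pcdh9 (chromosome 14, 94284843 to 94284902), of the delta group as well, was at -0.28, -0.38, 0.86 and 0.77. In all of Pcdh17, Pcdh19 and Pcdh9 the brain arrays lay above both limb arrays, and the CKO minus WT differences within a tissue stayed between -0.38 and 0.067.

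Pcdh18, Pcdh7 and Pcdh12 were the limb-high genes. Pcdh18 (chromosome 3, 49548399 to 49548458), whose protein binds the adaptor Dab1, was at 2.17 and 1.98 in WT and CKO limb and at -0.26 and -0.27 in WT and CKO brain, 5.37-fold lower in WT brain. Pcdh7 (chromosome 5, 58120201 to 58120260) was at -2.0, -2.11, -4.04 and -3.25, so its WT brain array was the lowest. Its other probe, at 58520529 to 58520588 and of another RefSeq transcript, ran the other way between tissues, with no signal well above background in WT limb and -5.11, -4.03 and -3.91 on the other arrays. With the mean of its probes Pcdh7 was at -0.43 in WT brain against WT limb, no longer 2-fold. Pcdh12, an endothelial protocadherin, was at 1.01 in both limbs, -0.0022 in WT brain and 0.31 in CKO brain at its brighter probe. Its level there in WT brain was 2.02-fold below WT limb, and with scaling by the median the difference was -0.92, under 2-fold. The dimmer probe of Pcdh12 was at -3.68 and -4.46 in WT and CKO limb, 1.72-fold lower in CKO. Of 8 endothelial markers, all were well above background on the 4 arrays, with summed signals of 14.4 and 15.1 in WT and CKO limb and of 11.9 and 13.3 in WT and CKO brain.

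Pcdh10, Pcdh1, Pcdh20, Pcdh11x and Pcdh15 complete the non-clustered genes. Pcdh10, which steers axon growth, was at 1.94 and 1.73 in WT and CKO limb and at 2.35 and 2.26 in WT and CKO brain at an intron-spanning probe that covers 6508 bases from 45196739 to 45203246 on chromosome 3. The probe is shown because the 4 probes of the gene disagreed between tissues:
Pcdh10 probe: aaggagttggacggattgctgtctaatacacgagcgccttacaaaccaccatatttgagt
WT brain against WT limb was 0.42 at that probe and -0.20, 1.07 and 2.40 at the others, while in limb all 4 were lower in CKO, by -0.21 to -0.39. Pcdh1, found in airway epithelium, was at 0.77, 0.72, 0.65 and 0.57 on the limb and then the brain arrays, WT first, nearly flat. Pcdh20 was at -1.95, -2.40, -1.25 and -1.39 on these arrays, and CKO limb was its lowest. Pcdh11x was not well above background in WT limb and at -5.10, -3.09 and -3.32 on the others, higher in brain, at least 3.64-fold in WT and 0.46 on the log2 scale with the mean of its 3 probes. Pcdh15, a part of the tip links of inner ear hair cells, was likewise not well above background in WT limb and was at -5.19, -4.01 and -3.99 on the others.

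**Figure D3:**
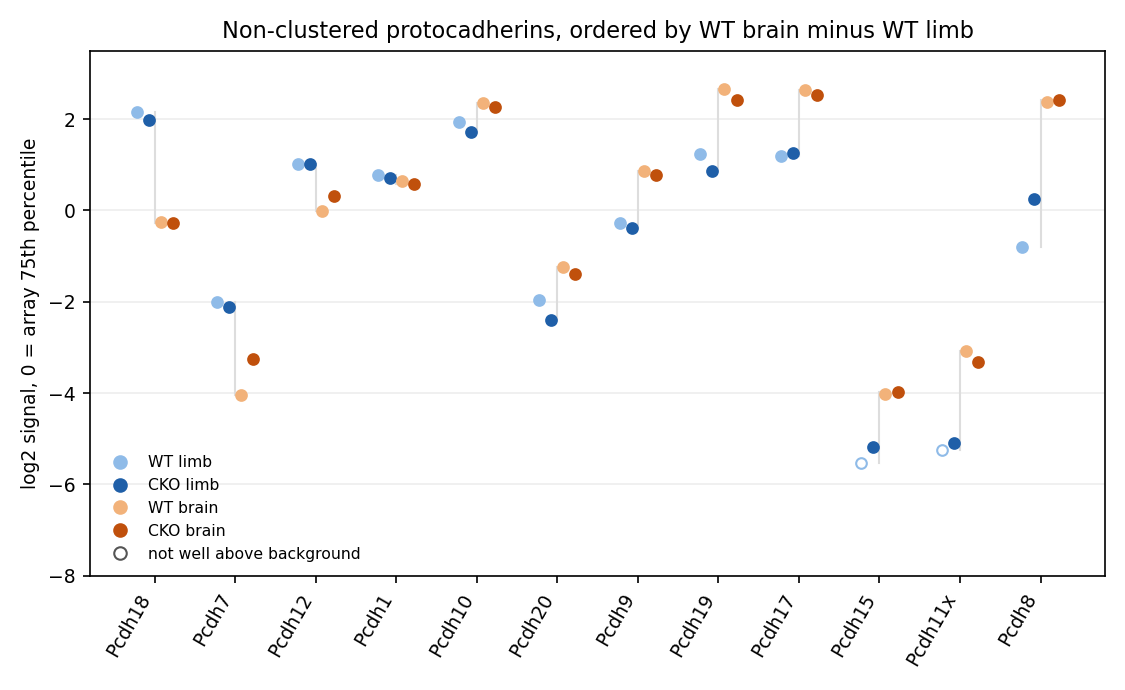
Level (log2 signal, 0 = the array's 75th percentile) of the 12 non-clustered protocadherins on the 4 arrays, ordered by WT brain minus WT limb, with open points not well above background. Pcdh18, at -2.42, stands at the limb-high end and Pcdh8, at 3.19, at the brain-high end, and Pcdh8 is the gene whose limb arrays lie 1.07 apart.

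Within the clusters, 4 of 5 alpha genes and 2 of 20 beta genes were at least 2-fold higher in WT brain, beside 15.8% of all genes compared. The alpha median was 3.27, or 1.65 with normexp background correction, and the beta median was 0.49. Of the 4 alpha genes, Pcdhac2 is read at the shared exons and so is not separate from the variable exons. Pcdha6 was at least 10.2-fold and Pcdha4 at least 4.41-fold higher in WT brain, or 1.65 and 1.22 on the log2 scale with normexp background correction. Among beta genes, Pcdhb13 was at -4.21 and -4.46 in WT and CKO limb and at -3.10 and -3.27 in WT and CKO brain. It was 2.16-fold higher in WT brain, or 0.47 on the log2 scale with normexp background correction. With the mean of its probes Pcdhb13 was also under 2-fold. Pcdhb7 was at -1.11, -1.47, -0.20 and -0.34 on these arrays, 1.88-fold higher in WT brain and 2.19-fold in CKO. Pcdhb22 went the other way, at -0.90 and -1.19 in the limbs and -1.42 and -1.41 in the brains. Pcdhb14 was also lower in WT brain than in WT limb, with a difference of -0.28. Pcdhb20 was at -0.55 and -0.53 in the limbs and 0.30 and 0.25 in the brains, WT first in each pair. In the same order, Pcdhb17 at -0.63, -0.77, 0.038 and 0.029 and Pcdhb3 at -1.67, -1.82, -0.98 and -1.09 had the limb arrays low and the brain arrays high. Pcdhb21 at 0.13, -0.13, 0.52 and 0.50, Pcdhb16 at -1.94, -2.14, -1.52 and -1.65 and Pcdhb15 at -2.51, -2.67, -2.16 and -2.19 had the same order of tissues with smaller gaps. For Pcdhb5, Pcdhb6 and Pcdhb18 the WT tissue difference was 0.29, 0.42 and 0.14. Pcdhb2, Pcdhb9 and Pcdhb12 were not well above background in WT limb, Pcdhb8 in neither limb, and Pcdhb11 was above it in CKO brain alone. In WT brain Pcdhb9 was at least 1.64-fold and Pcdhb12 at least 1.59-fold higher than in WT limb. The 3 gamma genes compared in WT lay between 0.35 and 0.59 higher in brain, the 0.35 of Pcdhga7 being a bound. The 0.59 is that of 1 shared-exon probe, and the other shared-exon gamma probes gave 0.46 and -0.044.

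**Figure D4:**
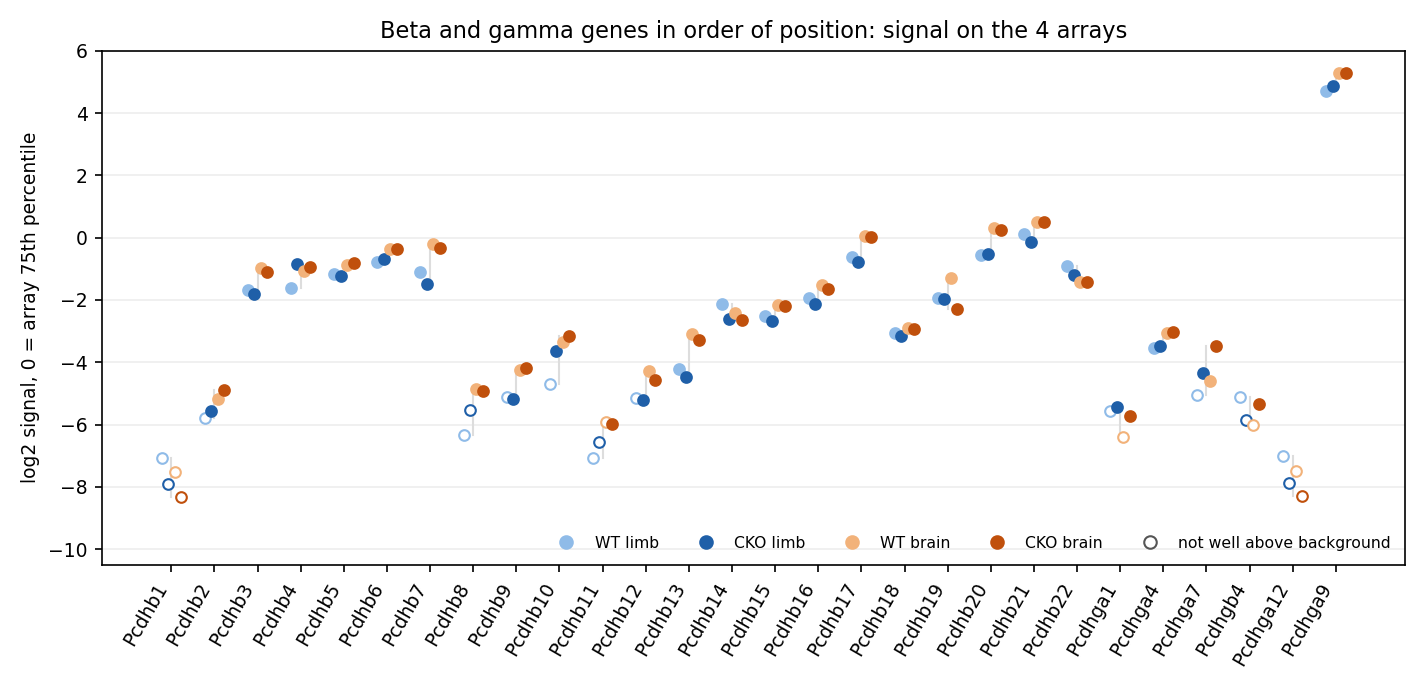
Level (log2 signal, 0 = the array's 75th percentile) of the 22 beta and 6 gamma genes on the 4 arrays, in order of position, with open points not well above background. The beta genes compared between WT brain and WT limb are higher in brain by a median of 0.49, and Pcdhb19 has a CKO brain point 0.98 below WT brain.

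In brain, Pcdhga7 was the protocadherin that reached 2-fold between CKO and WT. Of 43 protocadherins compared, 1 was at least 2-fold higher, beside 259 of 18946 genes (1.37%), and 0 were lower, beside 232 genes (1.22%). The median was -0.012, against -0.0098 over all genes. Pcdhga7, a variable gamma exon, was at -4.60 in WT brain and -3.49 in CKO brain, 2.15-fold higher, at a level where the technical SD is 0.41, and it was 0.44 higher with normexp background correction. Pcdhb19 was at -1.93 and -1.98 in WT and CKO limb and at -1.30 and -2.29 in WT and CKO brain, so 1.98-fold lower in CKO brain at its brighter probe. Its other probe differed by 0.11 in brain.

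Pcdh7 had the next largest brain difference, 0.79 or 1.73-fold higher in CKO brain at its limb-high probe, and 0.12 at its other probe. Markers of other tissues were also higher in CKO brain. Of 8 cartilage genes, 7 were at least 2-fold higher in CKO brain and 0 lower, and their summed signal was 6.26 in WT brain and 15.2 in CKO brain, with 5 and 8 of 8 well above background. Of 10 connective tissue genes, 5 were higher and 1 lower, with all 10 well above background and sums of 38.3 and 63.8. Of 7 inner ear genes compared, 5 were higher, with sums of 1.07 and 7.52, and the hair cell gene Pcdh15 differed by 0.027 at its representative probe, by -0.26 at its other probe measured on both brain arrays and by -0.37 with the mean of its 4 probes, 2 of which were well above background on no array. The part of such cells in the Pcdh7 difference was not tested.

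Over both tissues, limma with tissue as a block called 0 of the 30 protocadherins that were well above background on all 4 arrays for genotype after Benjamini-Hochberg adjustment, as it called 0% of 15632 genes in either direction. The smallest adjusted p among the 30 was 0.66. At an unadjusted p under 0.05 it had 3, all lower in CKO, beside 3.74% of genes, namely Pcdhb13 by -0.21, Pcdhb14 by -0.36 and Pcdh19 by -0.31. The other probe of Pcdhb13, with a mean level of -5.02, was not lower in CKO, with 0.13 in brain and a bound of 0 in limb. Pcdha9 averaged 1.10 with an SE of 0.54 and Pcdhac2 1.0 with an SE of 0.50. In this fit a difference between the tissues' genotype effects is itself the residual, with 1 degree of freedom, so a gene that differed in limb alone has a large error.

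The tissue term of the same fit called 23 of the 30, with 20 higher in brain, beside 32.2% of genes, and 3 lower, beside 34.4%. The 20 were 2 of 3 alpha, 10 of 15 beta, 2 of 2 gamma and 6 of 10 non-clustered genes. The beta genes among them were Pcdhb3, Pcdhb5, Pcdhb6, Pcdhb7, Pcdhb13, Pcdhb15, Pcdhb16, Pcdhb17, Pcdhb20 and Pcdhb21, with differences from 0.36 to 1.15 and limma adjusted p from 0.0064 to 0.033. Pcdh8 was 2.68 higher in brain with an SE of 0.33 and a limma adjusted p of 0.016, and Pcdhac2 2.47 with an SE of 0.50 and an adjusted p of 0.038. Pcdh19 was 1.49 higher in brain (adjusted p = 0.0062), Pcdh17 1.35 (0.0070) and Pcdh9 1.14 (0.0063). Among the lower genes, Pcdh18 was at -2.34 with an SE of 0.076 and an adjusted p of 0.0057, Pcdh7 at -1.59 (0.030) and Pcdh12 at -0.86 (0.018). Pcdh1, Pcdha4-g, Pcdhb4, Pcdhb14, Pcdhb18, Pcdhb19 and Pcdhb22 did not pass, with adjusted p from 0.073 to 0.66. The shared gamma exons entered this fit by 1 probe, and another of their probes gave -0.044 in WT and -0.099 in CKO. No group has a second array, so the residual behind these p-values is the unequal tissue difference of WT and CKO, with 1 degree of freedom. The p-values therefore measure no spread between embryos or litters. Nothing in the labels says that arrays of a tissue came from separate litters.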

How the data were processed

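Total RNA of 4 samples was amplified, labelled with Cy3 and hybridised to single-colour Agilent arrays, per the labels' protocols, and, per the submitters' processing notes, the scans were read by Agilent Feature Extraction 9.5.3.1. The deposited intensity values are linear and, per the file headers, background-subtracted and detrended within each array, with no step between arrays.

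Control spots were left out, log2 was taken, the 75th percentile of each array's 43379 other spots was subtracted, and the spots of a probe were averaged. The members, lists and rules were chosen with earlier results of these data known. Every protocadherin could be named, and of other lists Rest and up to 4 members with the largest difference. The background correction alternative used the deposited raw mean and local background intensities. The deposited series table differed from the scanner files by at most 0.0071 log2. Probe positions are mm9, as in the files, and RefSeq tables of GRCm38.p6 gave names and promoters. Scripts ran in Python 3.11.15 (numpy 2.4.6, pandas 2.3.3, matplotlib 3.10.9) and R 4.3.3 with limma 3.58.1, and were tested on simulated data. The number of arrays limits the precision.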

Additional observations from a re-analysis of the deposited data

Results flagged for a closer look

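Pcdh17 was the protocadherin measured on both arrays of each tissue whose genotype difference had opposite signs in limb and brain and was at least 2 technical SDs in each. It differed by 0.067 in CKO limb against WT limb and by -0.12 in CKO brain against WT brain. The difference between the tissues was not tested, and each value rests on 1 pair of arrays. Its next brightest probe gave 0.026 and -0.035, and its dimmest, well above background on all 4 arrays, gave -0.27 in limb and 0.27 in brain. With the mean of its 3 probes both signs turned, to -0.058 in limb and 0.037 in brain.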

How the results depend on the processing

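With normexp background correction, 2 protocadherins in place of 4 were at least 2-fold higher in CKO limb, Pcdh8 (0.98) and Pcdhb10 (0.32) no longer being called, and 0 in place of 1 in CKO brain, where Pcdhga7 was 0.44. Scaling by the median made Pcdhb19 the 1 gene called lower in CKO brain. With genes well above background on both arrays alone, the WT tissue comparison had 7 in place of 11 called higher in brain, and the median limb difference was -0.10. With the mean of all probes, Pcdh7 in CKO brain against CKO limb turned from -1.15 to 0.027. Pcdha9 (1.16 to 2.01) and Pcdhac2 (1.71 to 1.84) stayed past 2-fold in limb in the settings where they had a value, and Pcdhac2 has none once shared-exon probes are left out. The alpha median in limb was 0.50 with normexp and 0.91 with quantile or median scaling. The count of 0 genotype calls was the same in every setting and the 23 tissue calls stayed within 1.5 times. Over 166 single-gene differences, 1073 of 1296 alternative values stayed within 1 technical SD and 222 moved further. Many of the 1073 could not differ from the main value, such as the mean of all probes for a gene with a single probe. The filters on dim probes likewise change nothing for a gene well above background on both arrays. The 1 reversed value is that of Pcdh7, the one difference of 2-fold or more to change sign. Counting small differences too, 24 of the 1296 had the opposite sign. Beyond the tissue block of the limma fit, no paired analysis was possible because no group has a second array and the labels give no replicate numbers. For the same reason no replicate could be left out. Limb levels below -4 limit Pcdha4, Pcdha6 and Pcdhga7.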
